A study of Sus scrofa with 32 samples.

Results

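Chromatin modifiers and remodelers are described here by 53 genes, chosen by name and not by their values: symbols beginning with KMT, KDM, SETD, PRMT, HDAC, SIRT, SMARC, KAT, ARID or CHD and a digit, together with EZH2, EED, GATAD2A and EHMT2. These are 53 of the 6765 genes that the porcine array names by a single symbol, and each was read by its brightest probe set of the 100 that carry these names. Of the 53, 51 passed a filter on dim probe sets and were tested, and SMARCD3 and KATNA1 were left out as too dim. The KAT prefix also takes in KATNA1 and KATNBL1, which belong to katanin, an enzyme that severs microtubules and not an acetyltransferase. EZH1, SUZ12, KMT2A, PRMT1, SIRT1, KAT2A and ARID1A were not analysed here.

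Liver RNA came from 32 Pietrain pig fetuses at 35, 63 and 91 days post coitum (dpc), 1 array each. Their mothers were gilts (sows in their first pregnancy) on either a control diet or a methyl-enriched diet during gestation, richer in micronutrients that supply methyl groups. Each diet had 5 fetuses at the youngest age, 6 at the middle age and 5 at the oldest, and all groups shared breed and tissue. Offspring of 5 to 6 gilts per stage were used, but no label gives the dam, litter or sex of an array. P-values therefore measure the spread between fetuses, some of which may share a dam, and would then be too small. The number of arrays limits the precision.

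DNA in the nucleus is wound on histones, and the enzymes described here write, erase or read chemical marks on them or move the histones along the DNA. Acetyl groups, added by lysine acetyltransferases and removed by histone deacetylases (HDACs) and sirtuins, go with open chromatin, while methyl groups on lysine or arginine can mark active or silent genes. Methyltransferases take their methyl group from S-adenosylmethionine, which is made from dietary methyl donors. The fetal liver is a blood-forming organ for much of gestation and becomes a hepatocyte organ towards birth.

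Between 35 and 63 dpc, 37 of the 51 genes (72.5%) changed at a limma adjusted p under 0.05, 19 higher and 18 lower. The share called was 60.5% of all probe sets tested (32.5% higher and 28% lower) and 69% of genes when each gene was read by its brightest probe set, so the count lies near that of genes in general. Between 63 and 91 dpc, 36 genes changed (70.6%), 12 higher and 24 lower, beside 58.5% of all probe sets (29.5% higher and 29% lower) and 62.4% of brightest ones. From 35 to 91 dpc, 46 genes changed (90.2%), 19 higher and 27 lower, beside 79.9% of all probe sets (40.8% higher and 39.1% lower) and 83.6% of brightest ones. The ages did not overlap at all, array against array, for 4 genes, 8 genes and 26 genes in these comparisons, where this held for 8.6%, 13% and 40% of all probe sets. The median change of the 51 genes was 0.01, -0.14 and -0.26 on the log2 scale in these comparisons, against -0.09, -0.14 and -0.25 for the brightest probe sets of all named genes and 0.05, -0.03 and 0.00 for all probe sets. With probe sets of a gene averaged, 42.9%, 35.1% and 39.6% of the calls among the 51 genes were higher, beside 43.9%, 35.7% and 39.3% among all named genes. The splits by direction thus lay near those of named genes. Counts within single roles, given below, rest on few genes and stand beside the same shares. The 3 comparisons share arrays, so their counts are not independent. With the mean of 20 cell cycle genes as a covariate the counts were 24, 1 and 6, and with the mean of 10 erythroid genes 36, 14 and 29. Calls were fewer across the array in the same fits, at 39.1%, 0.972% and 8.29% of all probe sets with the cell cycle covariate and 55%, 12.1% and 38.5% with the erythroid one. The next paragraph gives both means by age.

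Mean signals of markers of liver cell types changed over the same ages. The mean log2 signal of 10 erythroid markers (of 27 listed) was 11.22 ± 0.22 (SD, n = 10) at 35 dpc, 10.75 ± 0.20 (n = 12) at 63 dpc and 9.05 ± 0.42 (n = 10) at 91 dpc, and that of 20 cell cycle and replication genes (of 35) was 9.30 ± 0.11, 8.76 ± 0.12 and 7.43 ± 0.29. For 26 hepatocyte markers (of 33), none of them at background, it was 12.85 ± 0.17, 13.48 ± 0.07 and 13.73 ± 0.04. Means of 6 lymphocyte and antigen presentation genes of 18 listed (5.36, 5.92 and 7.21) also differed between ages. Only these 6 of the 15 on the array passed the filter on dim probe sets. Those of smallest p were SLA-DQA1, SLA-DRA, SLA-DQB1 and CD74. Means of 13 macrophage genes of 19 (7.27, 7.39 and 7.87) and 6 neutrophil genes of 14 (7.90, 8.79 and 7.24) differed between ages as well. Genes of a list did not all move together. Between 35 and 91 dpc, 15 hepatocyte markers rose, 5 fell and 6 did not pass, with a range from -1.66 to 3.93. Of the erythroid markers 1 rose, 8 fell and 1 did not pass (-5.65 to 2.02). Of the cell cycle genes 2 rose, 16 fell and 2 did not pass. Of the macrophage genes 6 rose, 3 fell and 4 did not pass, with a median change of -0.04 and a range from -1.58 to 3.58. In bulk tissue, fewer cells of a type and less RNA per cell cannot be told apart, and the part of these cell types in the changes of chromatin genes was not tested beyond the covariates above. The spike-in controls parted the arrays into 18 with a large bioC to bioB gap (1.39 to 1.83 in log2) and 14 with a small one (0.16 to 0.39), called high-gap and low-gap here. Each group held 3 high-gap arrays and 2 low-gap arrays, or 3 of each at 63 dpc. Of the 51 genes, 11 differed between these batches by limma, 9 higher and 2 lower in high-gap arrays. That is 21.6% of them, beside 24.1% of all probe sets, and where a call of these 11 genes between ages was lost in a batch alone, the value there is given. The log2 ratio of 3' to 5' control signals was 1.27, 1.14 and 1.26 on average at the 3 ages. By diet, control and methyl-enriched, it was 1.33 and 1.202 at 35 dpc, 1.21 and 1.08 at 63 dpc, and 1.06 ± 0.31 and 1.46 ± 0.39 (SD, n = 5 each) at 91 dpc.

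**Figure D1:**
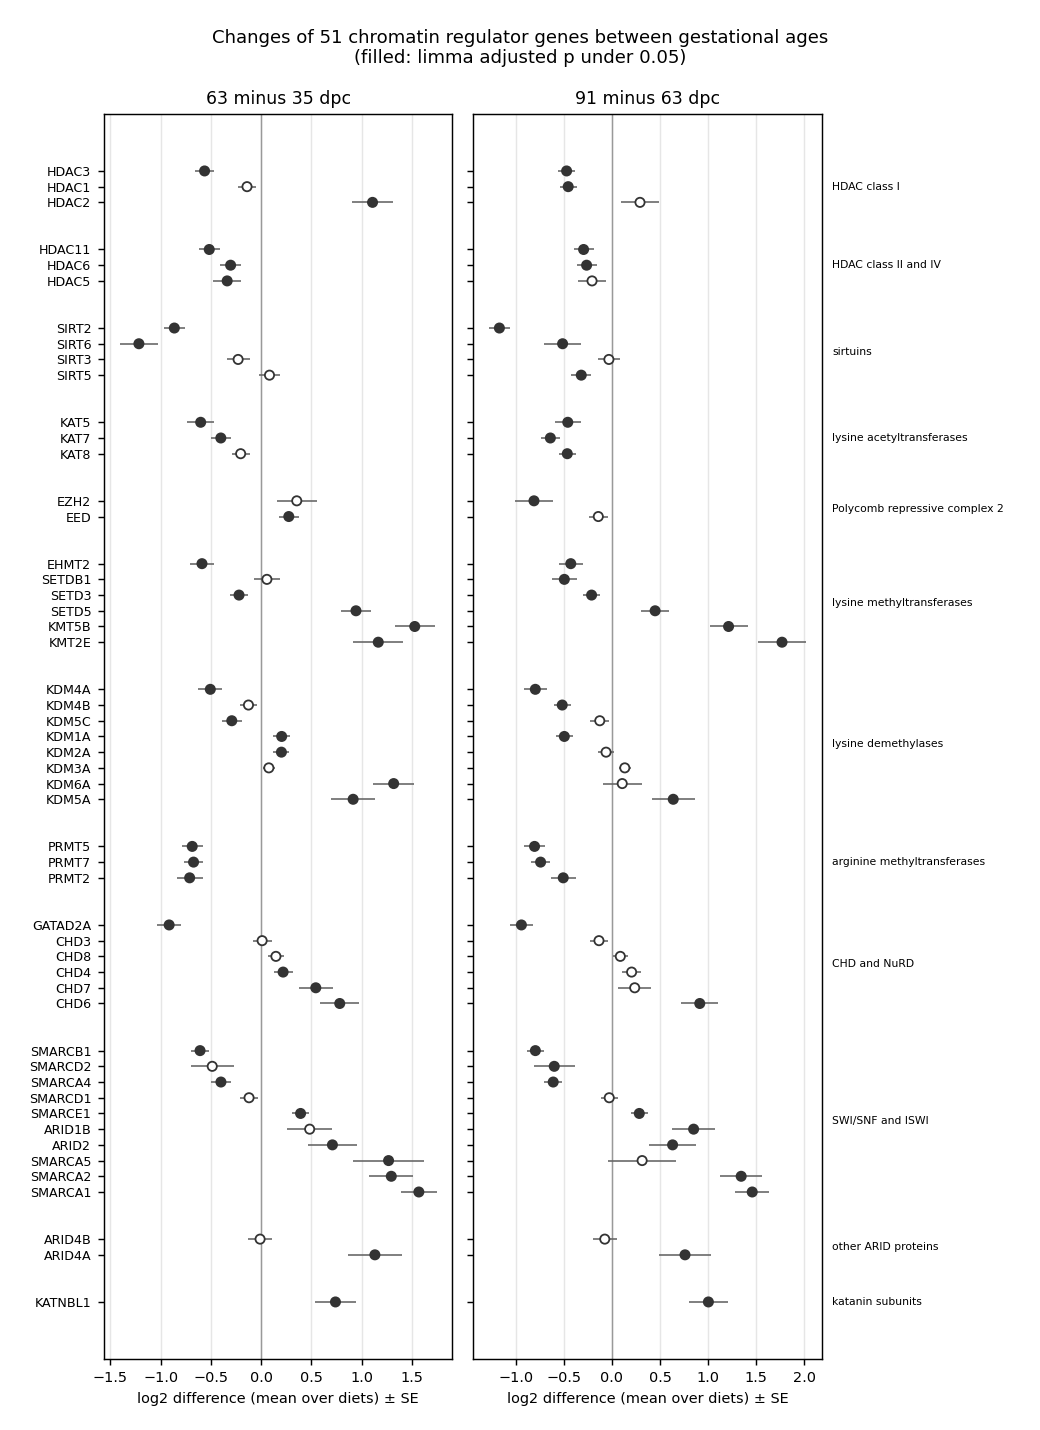
Log2 difference of each of the 51 tested genes between 63 and 35 dpc (left) and between 91 and 63 dpc (right), averaged over diets, with its standard error, grouped by role. Filled points passed a limma adjusted p under 0.05; SMARCA1, KMT2E, KMT5B and SMARCA2 lie far to the right in both panels, and the arginine methyltransferases and most sirtuins lie on the left of 0.

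Among nucleosome remodelers, the ATPases moved in opposite directions. SMARCA1, an ATPase of the ISWI family, which spaces nucleosomes, had log2 signals with lowest, median and highest values of 7.27, 7.84 and 8.44 at 35 dpc, 8.25, 9.48 and 10.17 at 63 dpc, then 10.59, 10.87 and 11.03 at 91 dpc. Every array at 91 dpc lay above every array at 63 dpc, and the youngest ages overlapped only slightly. It rose by 1.57 ± 0.18 (SE) and then by 1.46 ± 0.18, an 8.14-fold rise over the period (limma adjusted p = 3.76e-15). Its ISWI relative SMARCA5 went from 4.10, 5.57 and 6.33 to 5.39, 6.32 and 7.77 and then to 5.18, 6.96 and 8.42, with wide overlap at each step. It rose by 1.27 ± 0.35 between 35 and 63 dpc (limma adjusted p = 0.00286), though by 0.77 without a call in low-gap arrays alone. Between 63 and 91 dpc its brightest probe set gave 0.31 ± 0.35 (limma adjusted p = 0.46), while its other probe sets rose by 1.48 and 1.43.

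SMARCA2 and SMARCA4 are the alternative motor subunits of SWI/SNF, the complex that slides and evicts nucleosomes. SMARCA2 had lowest, median and highest values of 5.04, 6.95 and 7.50 at 35 dpc, 7.41, 8.005 and 8.47 at 63 dpc and, later, 9.09, 9.29 and 9.75 at 91 dpc. All arrays at 91 dpc stood above those of both younger ages. It rose 2.45-fold (limma adjusted p = 1.02e-05) and then 2.54-fold (limma adjusted p = 5.77e-06). SMARCA4 went the other way, from 8.88, 9.15 and 9.40 through 8.44, 8.69 and 9.10 to 7.85, 8.14 and 8.52. It fell by 0.40 ± 0.10 and by 0.61 ± 0.10 (limma adjusted p = 0.000674 and 3.3e-06), and its values at 35 and 91 dpc did not overlap.

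The other SWI/SNF subunits were divided as well. SMARCB1, a core subunit, fell in both intervals with no overlap between successive ages: its values were 9.69, 9.91 and 10.26 at 35 dpc, 8.82, 9.32 and 9.62 at 63 dpc, then 8.30, 8.55 and 8.74 at 91 dpc. The whole fall was 1.40 ± 0.09 on the log2 scale (limma adjusted p = 3.72e-14). SMARCE1, a DNA-binding subunit, rose by 0.39 ± 0.09 and 0.28 ± 0.09 in the same arrays. ARID2, which marks the PBAF form of the complex, rose by 0.71 ± 0.24 and 0.63 ± 0.24, the latter without a call when control replicate 4 at 91 dpc was left out (0.55, limma adjusted p = 0.0558). ARID1B, which marks the BAF form, rose by 0.85 ± 0.23 between 63 and 91 dpc (limma adjusted p = 0.00193), by 0.92 in high-gap arrays and 0.56 without a call in low-gap arrays. Its sign turned to -0.29 with the cell cycle covariate and to -0.38 with the erythroid one, neither of which passed. Its probe set may match more than 1 transcript. SMARCD2, a subunit known from granulocyte formation, fell by 0.60 ± 0.21 in that interval (limma adjusted p = 0.0177), without a call in either batch alone (-0.49 and -0.58), and stood at 0.02 with the erythroid covariate. SMARCD1 passed in no comparison, with differences of -0.12 and -0.03. Its probe set gave the same value, 5.19, in arrays of 35, 63 and 91 dpc, so a change may go unseen. Of 10 remodeler genes in all, 6 rose and 3 fell between 35 and 91 dpc, beside 40.8% higher and 39.1% lower of all probe sets.

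**Figure D2:**
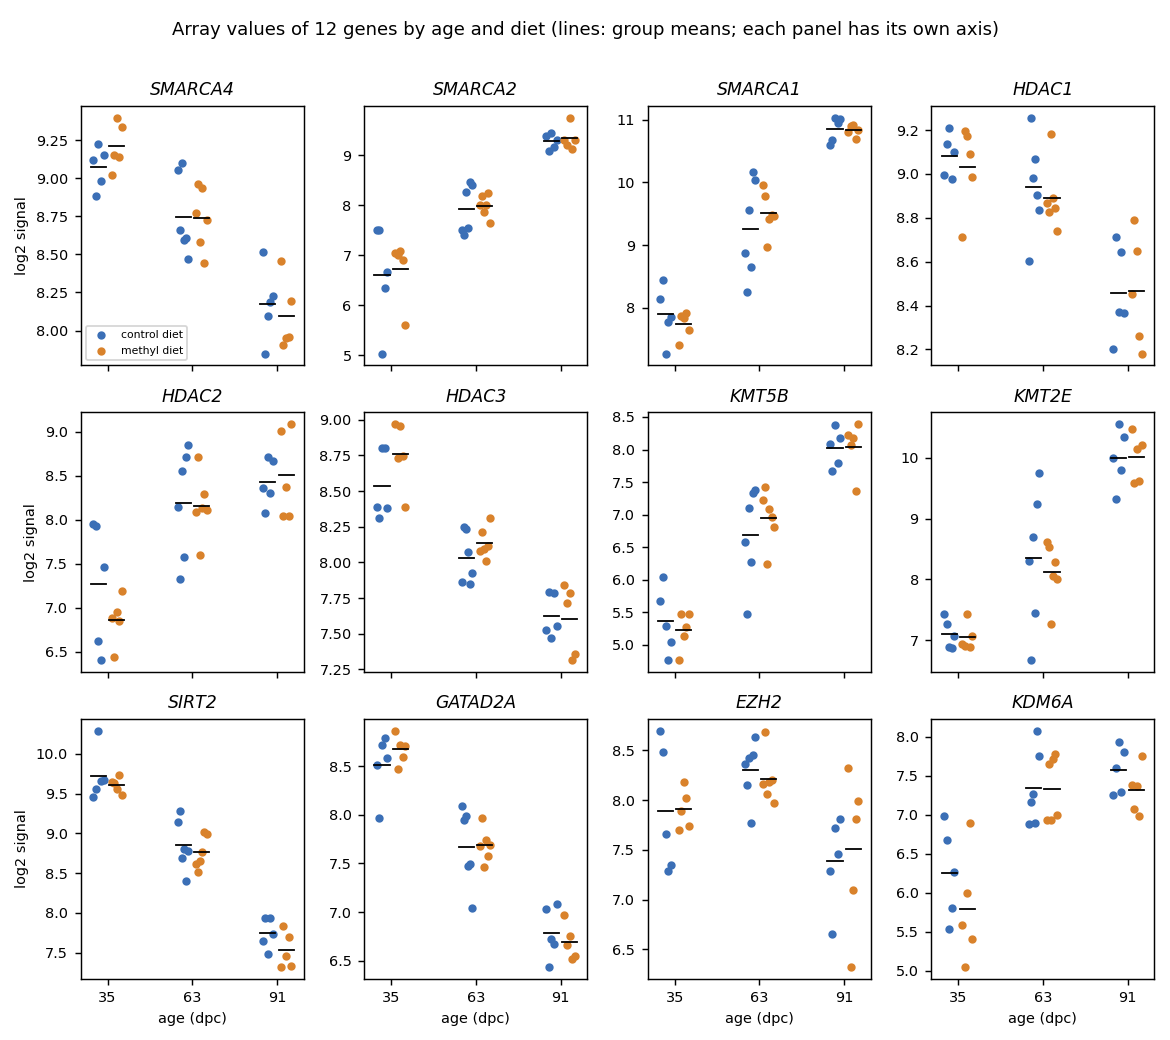
Log2 signal in each of the 32 arrays for 12 genes, by age in dpc, with control diet in blue and methyl-enriched diet in orange; lines are group means and each panel has its own scale. SMARCA2, SMARCA1, KMT5B and KMT2E climbed at each age and SMARCA4, HDAC3, SIRT2 and GATAD2A fell, while HDAC2 and KDM6A passed as higher between 35 and 63 dpc but not between 63 and 91 dpc, and the diets overlap in every panel.

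Chromodomain helicases and NuRD, a complex that couples remodeling to deacetylation, gave 4 genes higher and 1 lower of 6 between 35 and 91 dpc by their brightest probe sets. The 4 include CHD4 and CHD8, whose directions depended on the probe set and on the normalization, as given below. GATAD2A, a structural NuRD subunit, fell from 7.97, 8.65 and 8.86 at 35 dpc to 7.04, 7.69 and 8.09 at 63 dpc and 6.44, 6.70 and 7.08 at 91 dpc. It lost 0.92 ± 0.12 and 0.94 ± 0.12, a 3.62-fold fall over the period (limma adjusted p = 3.26e-14), and its other probe sets had whole-period differences of -1.76 and -1.01. CHD6 rose from 2.97, 4.04 and 4.71 through 4.22, 4.94 and 5.32 to 4.94, 5.93 and 6.73. Its gain was 0.78 ± 0.19 and then 0.91 ± 0.19 (limma adjusted p = 0.000883 and 0.000165), the latter 1.17 in high-gap arrays and 0.45 without a call in low-gap arrays, and its dimmer probe set gave -0.04 and 0.01. CHD7, a remodeler of developmental enhancers, rose by 0.54 ± 0.17 between 35 and 63 dpc (limma adjusted p = 0.00754), and gave 0.45 in high-gap arrays alone and 0.26 with its probe sets averaged, neither of which passed. Its dimmer probe set gave -0.03. CHD8 differed by 0.23 ± 0.08 only over the whole period (limma adjusted p = 0.0114), and by -0.05 after quantile normalization.

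CHD4, the main ATPase of NuRD, has 3 probe sets that did not move together. The brightest rose slightly, by 0.22 ± 0.10 (limma adjusted p = 0.0484) and 0.42 ± 0.10 over the period (limma adjusted p = 0.000312), and that call between 35 and 63 dpc was lost when any 1 of 20 arrays was left out in turn. A second fell by 0.38 ± 0.14 and then by 0.95 ± 0.14, from a mean of 7.25 at 35 dpc to 6.87 and 5.92. The third gave 0.31 ± 0.21 without passing and then fell by 0.69 ± 0.21. With all probe sets of a gene averaged, CHD4 fell by 0.48 between 63 and 91 dpc, so its direction depends on the probe set. Which transcripts these probe sets match was not tested.

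**Figure D3:**
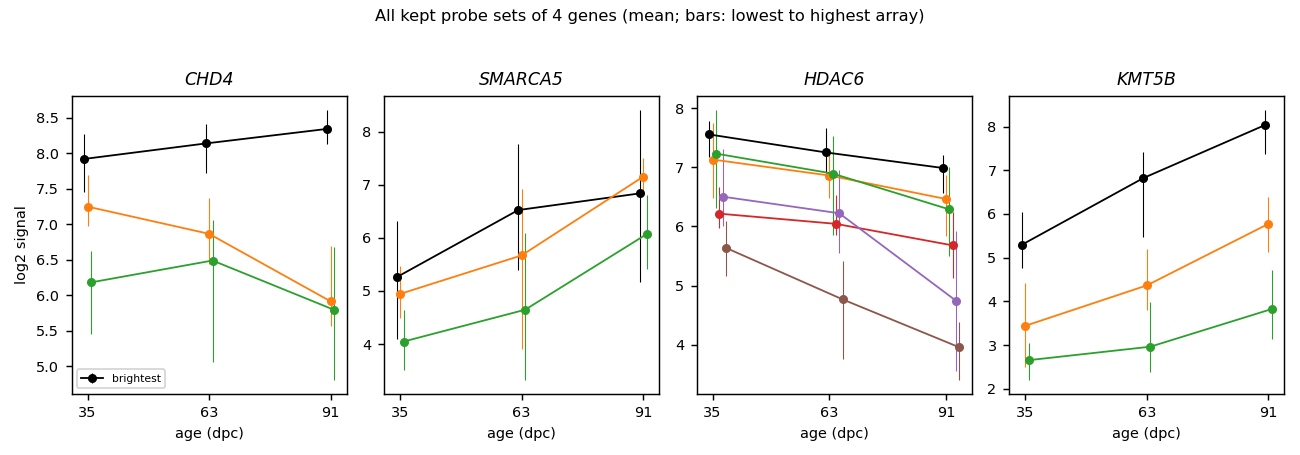
Mean log2 signal of every kept probe set of CHD4, SMARCA5, HDAC6 and KMT5B at 35, 63 and 91 dpc, with bars from the lowest to the highest array and the brightest probe set in black. All probe sets of SMARCA5 and KMT5B slope up and those of HDAC6 slope down, whereas the brightest CHD4 probe set slopes up while the other two end lower at 91 dpc than at 35 dpc.

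Over all 22 genes with several kept probe sets, 35 probe sets other than the brightest were available. Called or not, 28 of the 35 had the sign of the brightest probe set in each comparison. Between 35 and 63 dpc, 30 belonged to genes called by the brightest, and 12 of these were called too, 11 with the same sign. Between 63 and 91 dpc, 16 of 23 were called too, all 16 with the same sign. Over the whole period 24 of 29 were, 23 with the same sign. Among those called in both, the exception was CHD4 between 35 and 63 dpc and again over the whole period.

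Class I deacetylases HDAC1, HDAC2 and HDAC3 work in the nucleus, HDAC1 and HDAC2 as paired subunits of the same repressor complexes. HDAC2 had lowest, median and highest values of 6.40, 6.91 and 7.95 at 35 dpc, 7.32, 8.14 and 8.84 at 63 dpc and, later, 8.04, 8.36 and 9.08 at 91 dpc. It rose 2.15-fold between 35 and 63 dpc (log2 difference 1.11 ± 0.20, limma adjusted p = 2.76e-05) and did not pass thereafter (0.29 ± 0.20). HDAC1 went from 8.71, 9.10 and 9.21 to 8.60, 8.88 and 9.26 and then 8.18, 8.41 and 8.79. Its earlier difference of -0.14 ± 0.09 did not pass, and it fell by 0.45 ± 0.09 between 63 and 91 dpc (limma adjusted p = 7.7e-05). HDAC3, the catalytic subunit of the NCoR and SMRT corepressors, fell from 8.31, 8.74 and 8.97 through 7.85, 8.09 and 8.31 to 7.32, 7.64 and 7.84. Its ages did not overlap at either step, and the fall came to 1.03 ± 0.10 (limma adjusted p = 4.53e-11).

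The class II enzymes HDAC5 and HDAC6 and the class IV enzyme HDAC11 all fell between 35 and 91 dpc. HDAC11 went from 5.73, 6.26 and 6.96 to 5.54, 5.73 and 6.19 and then 5.33, 5.50 and 5.58, a fall of 0.81 ± 0.11 (limma adjusted p = 5.94e-08). HDAC6, a cytoplasmic deacetylase of tubulin, fell by 0.57 ± 0.11 over the period (limma adjusted p = 2.61e-05), and all 5 of its other probe sets were lower too, by 0.54 to 1.76 on the log2 scale. HDAC5, which shuttles between nucleus and cytoplasm, fell by 0.54 ± 0.15 over the period. Its fall of 0.34 ± 0.14 between 35 and 63 dpc (limma adjusted p = 0.0392) did not pass in either batch alone, where the size was similar (-0.32 among high-gap arrays, -0.28 among low-gap ones), nor without any 1 of 10 arrays (-0.33 to -0.24).

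All 4 sirtuins, deacylases that need NAD, were lower at 91 than at 35 dpc. Over this period 39.1% of all probe sets and, with probe sets averaged, 2843 of 5594 named genes were called lower. SIRT2, which is largely cytoplasmic, went from 9.46, 9.64 and 10.29 to 8.40, 8.78 and 9.29 and then to 7.32, 7.67 and 7.93. No age overlapped the next, and it fell 1.82-fold and then 2.25-fold (limma adjusted p = 8.91e-08 and 2.26e-10). SIRT6, a nuclear enzyme tied to genome stability and glucose metabolism, went from 4.24, 4.71 and 6.17 through 3.16, 3.73 and 4.41 to 2.90, 3.24 and 3.57. It fell by 1.22 ± 0.19 and 0.51 ± 0.19 (limma adjusted p = 3.06e-06 and 0.0214), the latter -0.48 without a call in high-gap arrays alone. Its lowest values at 91 dpc reach the filter's background level (2.74 to 2.93 across arrays), so the later fall may be understated. The mitochondrial SIRT3 and SIRT5 fell little, by 0.26 ± 0.12 and 0.24 ± 0.11 over the period (limma adjusted p = 0.0478 and 0.0437), and these calls were lost when any 1 of 20 arrays and any 1 of 10 arrays was left out in turn (differences as small as -0.22 and -0.17).

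All 3 measured lysine acetyltransferases fell over the period, in which 39.1% of all probe sets were called lower. KAT5, the catalytic subunit of the TIP60 complex, fell by 1.06 ± 0.14 and KAT7, which acetylates histones at replication origins, by 1.04 ± 0.11 (limma adjusted p = 5.99e-08 and 3.55e-10). KAT7 values were 7.41, 7.73 and 8.37 at 35 dpc, 6.94, 7.35 and 7.79 at 63 dpc, then 6.50, 6.74 and 7.09 at 91 dpc. The oldest fetuses thus lay wholly below the youngest. KAT8, which acetylates histone H4, did not pass between 35 and 63 dpc (-0.20 ± 0.09, limma adjusted p = 0.0522) and fell by 0.46 ± 0.09 afterwards.

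The 3 arginine methyltransferases measured fell in both intervals, where 28% and 29% of all probe sets were called lower. PRMT7, which adds single methyl groups to arginine, had values of 9.48, 9.90 and 10.23 at 35 dpc, 8.89, 9.23 and 9.45 at 63 dpc and, later, 8.17, 8.57 and 8.69 at 91 dpc. The ages were fully apart, and it fell by 0.67 ± 0.10 and 0.74 ± 0.10 (limma adjusted p = 8.92e-07 and 1.59e-07). PRMT5, the main enzyme for symmetric arginine methylation, fell from 7.92, 8.20 and 8.50 through 6.96, 7.52 and 7.98 to 6.47, 6.75 and 7.05, 2.81-fold over the period (limma adjusted p = 2.67e-13). Its dimmer probe sets had whole-period differences of -0.998 and -0.29. PRMT2 fell by 0.71 ± 0.13 and 0.51 ± 0.13 (limma adjusted p = 2.83e-05 and 0.00139), the latter turning to 0.12 without a call with the cell cycle covariate.

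Genes grouped here as lysine methyltransferases, not all of which have that activity on histones, split evenly, with 3 of 6 higher and 3 lower at 91 than at 35 dpc. KMT2E, a SET domain protein without clear methyltransferase activity, ranged over 6.88, 7.001 and 7.44 at 35 dpc, 6.67, 8.29 and 9.76 at 63 dpc, then 9.32, 10.07 and 10.56 at 91 dpc. The spread was widest at 63 dpc, where 1 array lay below every array of 35 dpc. It rose 2.24-fold and then 3.4-fold (limma adjusted p = 0.000177 and 4.99e-07), and a dimmer probe set rose by 1.05 and 1.66. In low-gap arrays alone its earlier rise was 0.94 without a call. KMT5B, which di- and trimethylates histone H4 in compact chromatin, went from 4.77, 5.28 and 6.05 to 5.48, 7.02 and 7.42 and then 7.36, 8.13 and 8.39. It rose by 1.53 ± 0.20 and 1.21 ± 0.20, 6.67-fold in all (limma adjusted p = 4.31e-13). SETD5, a regulator of transcription in development, rose by 0.94 ± 0.15 and 0.45 ± 0.15.

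EHMT2, which methylates histone H3 in silent genes, went from 6.71, 7.21 and 7.71 through 6.23, 6.62 and 6.78 to 5.58, 6.28 and 6.42. It fell by 0.59 ± 0.12 and 0.43 ± 0.12 (limma adjusted p = 0.000135 and 0.00349), and its earlier fall was 0.84 in high-gap arrays and 0.21 without a call in low-gap ones. SETDB1, a partner of KRAB zinc finger repressors, did not pass between 35 and 63 dpc (0.06 ± 0.13, limma adjusted p = 0.721) and fell by 0.49 ± 0.13 afterwards. SETD3, now known as an actin methyltransferase, fell by 0.22 ± 0.09 and 0.21 ± 0.09 (limma adjusted p = 0.033 and 0.0422), and these calls were lost with its probe sets averaged (-0.11 and -0.11) and when any 1 of 6 arrays and any 1 of 12 arrays was left out in turn (differences as small as -0.17 and -0.18).

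Polycomb repressive complex 2 silences developmental genes and was measured by its catalytic subunit EZH2 and its core subunit EED. EZH2 had values of 7.29, 7.82 and 8.70 at 35 dpc, 7.77, 8.19 and 8.68 at 63 dpc and, later, 6.33, 7.59 and 8.32 at 91 dpc, with overlap throughout. It did not pass between 35 and 63 dpc (0.35 ± 0.20, limma adjusted p = 0.123) and fell by 0.81 ± 0.20 between 63 and 91 dpc (limma adjusted p = 0.000834). That fall was 0.67 and 1.07 on the log2 scale in high-gap and low-gap arrays. With the erythroid covariate the difference was 0.41, and with the cell cycle covariate 0.90, neither of which passed. Over the whole period EZH2 was lower by 0.46 ± 0.21 on the log2 scale (limma adjusted p = 0.0446), a call lost without any 1 of 10 arrays and in each batch alone (-0.19 and -0.86). EED rose by 0.27 ± 0.10 between 35 and 63 dpc (limma adjusted p = 0.017) and gave -0.14 ± 0.10 afterwards. Its dimmer probe set gave -0.20 and -0.38, so that with both averaged the earlier difference was 0.04 and did not pass, and the whole-period difference went from 0.13 to -0.23, neither of which passed.

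Lysine demethylases erase methyl marks, and of 8 measured, 3 rose (KDM5A, KDM6A and KDM3A) and 4 fell over the period. KDM6A, which opposes Polycomb by removing its histone mark, went from 5.05, 5.90 and 6.98 at 35 dpc to 6.88, 7.22 and 8.08 at 63 dpc and 6.99, 7.38 and 7.94 at 91 dpc. It rose 2.49-fold between 35 and 63 dpc (limma adjusted p = 2.3e-06) and gave 0.11 ± 0.20 afterwards. KDM5A, an eraser of marks at active promoters, rose by 0.91 ± 0.22 and 0.64 ± 0.22, while its X-linked relative KDM5C fell by 0.29 ± 0.10 between 35 and 63 dpc (limma adjusted p = 0.0127). KDM4A went from 6.98, 7.40 and 7.80 through 6.54, 6.92 and 7.24 to 5.59, 6.27 and 6.43. It fell by 0.51 ± 0.12 and 0.79 ± 0.12 (limma adjusted p = 0.000488 and 1.25e-06), and its relative KDM4B gave -0.13 ± 0.09 without passing and then fell by 0.52 ± 0.09 (limma adjusted p = 1.09e-05). In both genes every array at 91 dpc lay below every array at 63 dpc. KDM1A, a demethylase of corepressor complexes, rose by 0.20 ± 0.09 and then fell by 0.49 ± 0.09 (limma adjusted p = 0.0451 and 1.79e-05), its rise being lost when any 1 of 12 arrays was left out (0.15 to 0.21). KDM2A rose by 0.20 ± 0.08 between 35 and 63 dpc (limma adjusted p = 0.0299), lost without any 1 of 6 arrays, and did not pass over the whole period. KDM3A passed as higher over the period by 0.21 ± 0.06 (limma adjusted p = 0.00337), but its probe set exceeded the background level in only 9 of 32 arrays, and with its probe sets averaged the difference was 0.14 without a call.

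ARID4A, a corepressor subunit of the SIN3 complex, rose from 2.97, 3.60 and 4.64 at 35 dpc to 3.88, 4.92 and 6.09 at 63 dpc and 4.74, 5.56 and 6.84 at 91 dpc (1.13 ± 0.27 and 0.76 ± 0.27, limma adjusted p = 0.00061 and 0.0161). With its 4 kept probe sets averaged, it rose by 0.48 and 0.70. Its paralog ARID4B passed in neither interval by its brightest probe set, and rose by 0.41 over the period with its probe sets averaged. That brightest probe set gave the same value, 3.76, in arrays of 35 and 63 dpc, so a change may go unseen. The katanin gene KATNBL1, which is no chromatin enzyme, rose by 0.74 ± 0.21 and 1.002 ± 0.21.

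Paralogs that can replace each other in a complex were compared within each array, by the difference of their log2 signals. Only its change with age can be read, since probe sets differ in brightness. Of 15 pairs listed, 4 had both genes tested, which gave 8 permutation tests (two-sided, 100000 resamples) adjusted together. SMARCA4 minus SMARCA2 had lowest, median and highest values of 1.38, 2.28 and 4.19 at 35 dpc, 0.07, 0.81 and 1.55 at 63 dpc, then -1.80, -1.13 and -0.84 at 91 dpc. It shifted towards SMARCA2 by -1.69 and -1.95, each with a permutation p of 1e-05, the smallest these resamples can give (adjusted p = 4e-05). HDAC2 minus HDAC1 went from -2.75, -2.03 and -1.05 through -1.94, -0.59 and 0.01 to -0.75, -0.03 and 0.90. The shifts towards HDAC2 were 1.25 and 0.75 (permutation adjusted p = 0.00032 and 0.00933), neither passing in low-gap arrays alone (1.11 and 0.60).

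CHD4 minus CHD3 changed by 0.21 without passing and then by 0.34 (permutation adjusted p = 0.186 and 0.00826). The later change turned to -0.24 with probe sets averaged. SMARCD2 minus SMARCD1 changed by -0.37 without passing and then by -0.57 (permutation adjusted p = 0.0994 and 0.00826). SMARCD2 alone changed by -0.60 in the later interval. CHD3 gave the same value, 4.02, in arrays of 35 and 91 dpc. SMARCD1 gave 5.19 in arrays of 35, 63 and 91 dpc. Changes of CHD3 and SMARCD1 may thus go unseen, and the differences of both pairs need not show a shift between partners. Whether these values are a floor was not tested. Within each batch or each diet alone, the SMARCA4 to SMARCA2 shift passed in both intervals.

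**Figure D4:**
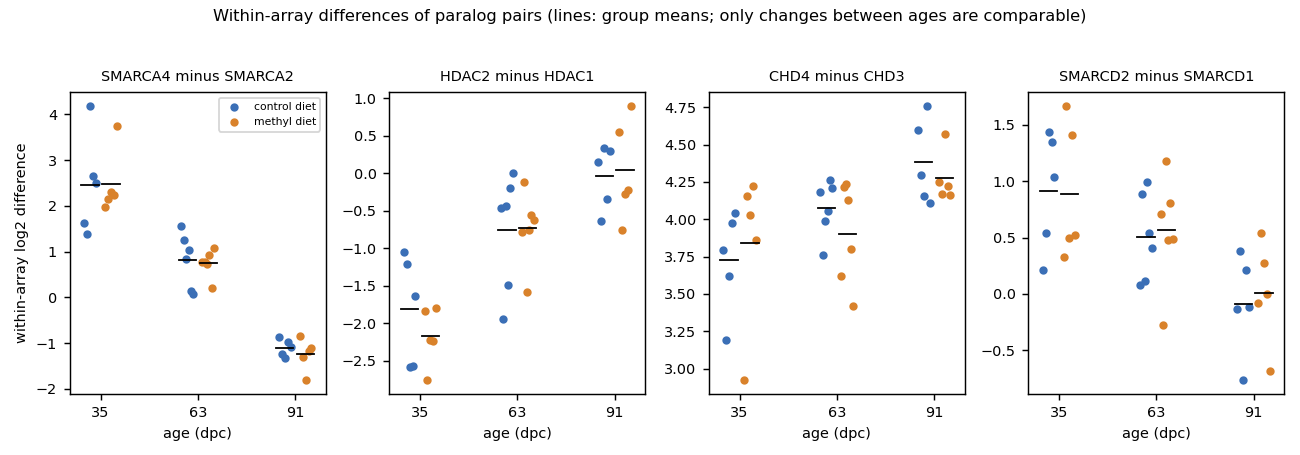
Within-array difference of log2 signal for 4 paralog pairs in each of the 32 arrays, by age in dpc, with control diet in blue, methyl-enriched diet in orange and lines at group means. SMARCA4 minus SMARCA2 drops from a median of 2.28 to -1.13 and HDAC2 minus HDAC1 climbs from -2.03 to -0.03, with the other pairs changing less.

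Partner genes of the same complexes came from lists of symbols outside the 53. Their counts stand beside 32.5% higher and 28% lower of all probe sets between 35 and 63 dpc. Between 63 and 91 dpc these shares were 29.5% and 29%, and over the whole period 40.8% and 39.1%. Named genes leaned lower than all probe sets. With probe sets of a gene averaged, 1713 of 5594 were called higher and 2191 lower between 35 and 63 dpc, then 1275 and 2297. The genes named below are among the 3 of smallest p in each list. Of 14 other histone methylation genes, 2 rose and 7 fell between 35 and 63 dpc, and 2 rose and 10 fell between 63 and 91 dpc, with medians of -0.13 and -0.49. MEN1, a subunit of MLL complexes, fell by 1.02 and 0.90, and WDR77, the partner of PRMT5, by 0.77 and 0.64. Of 10 other NuRD, SIN3 and corepressor genes, 2 rose and 3 fell, then 1 rose and 6 fell, and MTA2, a NuRD subunit, fell by 0.90 and 0.70. Other remodeler genes gave 9 rises and 7 falls of 19, then 5 and 6. Over the whole period 10 rose and 8 fell, with differences from -2.34 to 2.95 and a median of 0.43, and the ATPases RUVBL1 and RUVBL2 fell by 1.98 and 2.34.

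Of 12 other Polycomb genes, 5 rose and 3 fell, then 4 rose and 3 fell. MTF2, an accessory subunit of complex 2, rose by 1.63 and 1.501, whereas the deubiquitinase BAP1 fell by 0.85 and 0.73. Acetyltransferase partners and readers gave 12 rises and 3 falls of 19, then 5 and 4. The coactivator NCOA2 rose by 1.40 and 1.29, and TADA3, an adaptor of SAGA, fell by 0.53 and 0.58. Histone chaperone and heterochromatin genes gave 9 rises and 8 falls of 19, then 2 and 9, with ASF1B, a chaperone used at replication, falling by 0.99 and 2.35 and the architectural protein HMGA1 by 1.68 and 2.11. Of 6 DNA methylation genes, 3 rose and 2 fell, then 1 rose and 3 fell, and over the whole period 2 rose and 4 fell. ZBTB33, a reader of methylated DNA, rose by 1.54 and 1.52, whereas GADD45A fell by 0.25 and 0.85 and DNMT3B by 1.25 and 0.65. DNMT3B was dim, with a mean of 3.83 over all arrays. The filter's background level was 2.74 to 2.93, so its later fall may be understated.

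The maternal diet was compared at each age because the fed methyl donors supply the cofactor of these methyltransferases. limma called 0 of 51 genes at 35, 63 or 91 dpc, 0 averaged over ages and 0 for a diet effect that differed by age. Of all probe sets 0.0391%, 0% and 0.0718% were called at the 3 ages. With the 3' to 5' ratio as a covariate, the probe sets called at 91 dpc numbered 3 in place of 11, and the genes called stayed at 0. At an unadjusted p under 0.05, 1, 0 and 2 of the 51 genes passed at the 3 ages, 2 on average and 1 by age, beside 6.09%, 1.43%, 6.52%, 4.47% and 4.31% of all probe sets. At no age did any gene have diet groups that did not overlap. Averaged over ages, the differences ran from -0.24 to 0.33, and the 95% interval lay within 0.5 of 0 for 42 of 51 genes and within 1 for 51. At single ages it lay within 0.5 for 24, 31 and 24 genes, and its median half-width was 0.35, 0.32 and 0.35.

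The smallest p at 35 dpc belonged to HDAC11, with means of 6.12 on the control and 6.47 on the methyl-enriched diet (difference 0.35 ± 0.15, limma adjusted p = 0.764). At 63 dpc it was SIRT3 (0.28 ± 0.16, limma adjusted p = 1). At 91 dpc they were KDM5C, with means of 4.98 and 4.64 (-0.35 ± 0.15, limma adjusted p = 0.647), and KDM3A, which is near background (-0.25 ± 0.09, limma adjusted p = 0.465). On average over ages, the smallest p was that of KDM3A, with means of 2.84 and 2.71 (-0.13, 95% interval -0.23 to -0.03, unadjusted p = 0.0132, limma adjusted p = 0.999). KAT5 followed, 0.28 higher on the methyl-enriched diet (95% interval 0.05 to 0.51, unadjusted p = 0.0187, limma adjusted p = 0.999). SMARCE1 gave the smallest p for a diet effect that differed by age (unadjusted p = 0.0474 by limma's F test, adjusted p = 1). Among genes grouped as lysine methyltransferases, the largest changes by age were those of KMT2E, which lacks clear activity of this kind, and KMT5B. Their averaged diet differences were -0.09 and 0.05, and those of PRMT5 and PRMT7 were 0.07 and 0.00.

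**Figure D5:**
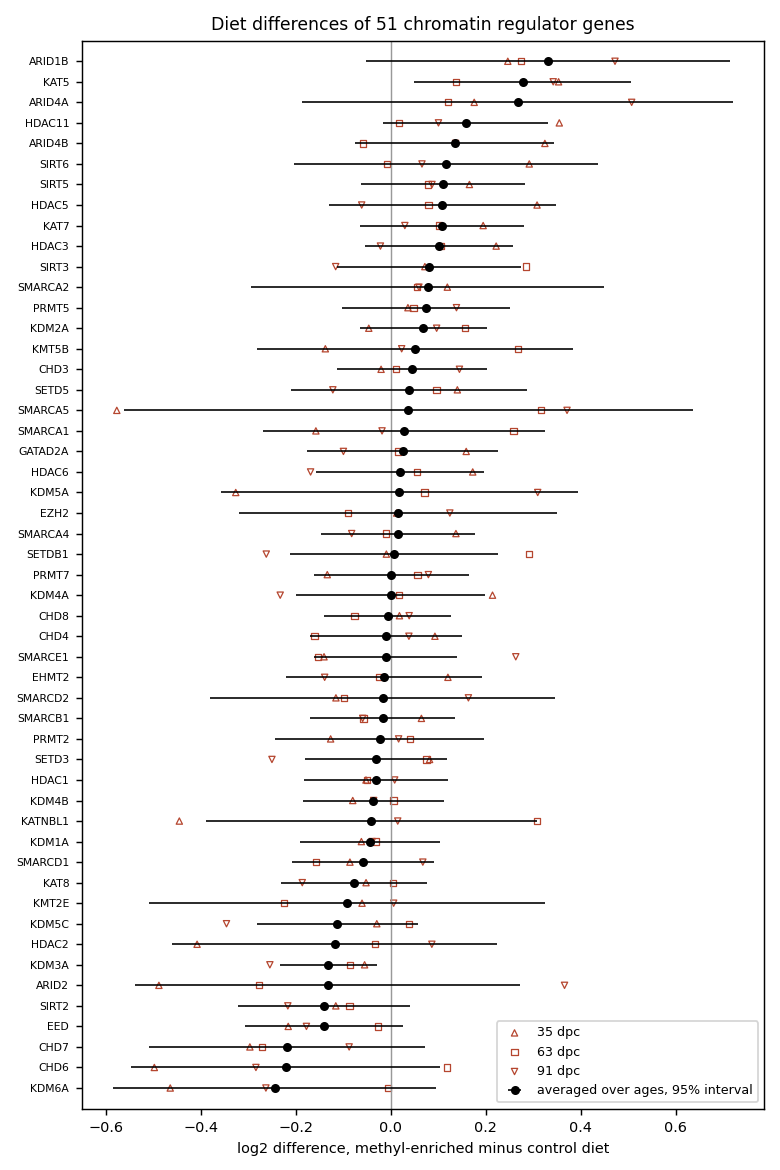
Log2 difference between methyl-enriched and control diet for the 51 genes, averaged over ages with its 95% interval (black), and at 35, 63 and 91 dpc (open symbols). Averaged differences run from -0.24 for KDM6A to 0.33 for ARID1B, and no gene passed an adjusted p under 0.05.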

How the data were processed

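The deposited values are log2 signals per probe set from the authors, with array medians of 3.83 to 4.22; the software GCOS 1.1.1 appears, per the submitters' processing notes, without a role, and the normalization is not given in the sources used here. They were used unchanged. Of 23999 probe sets (124 controls set aside), 15327 above the array's 40th percentile in at least 5 arrays were kept. limma 3.58.1 (R 4.3.3, package data.table, version 1.17.8) fitted 6 group means with standard errors following intensity (26 residual df), and p-values were Benjamini-Hochberg adjusted over all probe sets of a contrast, with calls under 0.05. Age contrasts average the diets. Paralog tests and intervals used Python 3.11.15 with numpy 2.4.6, scipy 1.17.1 and pandas 2.3.3. The fit was tested on simulated data. Symbols come from the array annotation, 51 of 53 matched to RefSeq by gene ID. The members, lists and alternatives were chosen with earlier results of these data known. Per contrast, the genes named were up to 10 called higher and 10 lower by size, the called or 5 lowest-p genes for diet, up to 3 per role, and a list of well-known members; up to 3 per partner list. Alternatives were other fits, filters, scaling, batches, diets alone, covariates and leaving out each array.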

Additional observations from a re-analysis of the deposited data

Results flagged for a closer look

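Of 306 gene and group combinations, 29 (9.48%) held an array that exceeded Dixon's 95% critical value, where chance alone gives about 5%. The value compared was the gap to the nearest other array divided by the range of the group. No explanation was tested. The methyl-enriched diet replicate 1 at 35 dpc stood apart in 5 genes: ARID2 at 2.40 (others 4.74 to 5.03), CHD3 at 4.52, KDM3A at 2.71, KDM5A at 3.54 and SMARCD1 at 5.73. Without it, the genes called numbered 33, 37 and 45 in the 3 age comparisons. SMARCA2 stood at 5.60 in methyl replicate 5 at 35 dpc (others 6.90 to 7.09) and at 9.75 in methyl replicate 3 at 91 dpc. SIRT2 was at 10.29 in control replicate 3 at 35 dpc (others 9.46 to 9.67). EHMT2 was low in control replicate 5 at 63 dpc (6.23), control replicate 4 at 91 dpc (5.91) and methyl replicate 4 at 91 dpc (5.58). Methyl replicate 6 at 63 dpc stood apart in ARID4B (4.37), CHD8 (6.38) and KDM1A (7.47), replicate 5 in HDAC6 (7.67) and KDM3A (2.73), and replicate 3 in HDAC1 (9.18) and KATNBL1 (5.19). EZH2 was at 8.68 in methyl replicate 2 and SMARCD1 at 5.02 in methyl replicate 4 of that age, and SMARCD1 at 5.66 in control replicate 2. At 91 dpc, CHD3 was at 3.62 in control replicate 4, KDM4A at 5.71 in control replicate 3, SMARCD1 at 5.13 in control replicate 5 and 5.53 in methyl replicate 4, KAT5 at 5.32 in methyl replicate 1 and EED at 8.48 in methyl replicate 5. At 35 dpc, ARID4B was at 3.81 in control replicate 2 and KDM3A at 2.70 in control replicate 4. Several of these groups (ARID4B, CHD3, KDM3A and SMARCD1) had near-equal or identical values in the other arrays, so that small gaps sufficed.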

How the results depend on the processing

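No paired analysis was possible because replicate numbers only name the arrays. Leaving out each array gave 33 to 39, 34 to 38 and 43 to 46 called genes in the 3 age comparisons and 0 for diet, which was also 0 under every alternative run. In low-gap arrays alone the counts were 19 for 63 against 35 dpc and 20 for 91 against 63 dpc, from 14 of the 32 arrays, beside 31.3% and 34.3% of all probe sets. With the cell cycle covariate they were 24, 1 and 6 (39.1%, 0.972% and 8.29% of all probe sets), and with the erythroid one 14 in the later interval and 29 over the period (12.1% and 38.5%). Both covariates differ between ages, as their means show. The cell cycle mean did not overlap between ages (9.12 to 9.48, 8.60 to 9.03 and 7.04 to 7.83), so its fits reach beyond values that the ages share. With the cell cycle covariate, directions turned for ARID1B (-0.29 and over the period -0.28), EZH2 (0.90 and 1.96), KDM3A over the period (-0.20) and PRMT2 (0.12). With the erythroid one they turned for ARID1B (-0.38 and -0.23), EZH2 (0.41 and 1.099) and SMARCD2 (0.018). None of these turned differences passed (limma adjusted p = 0.0925 to 0.988). With probe sets averaged, ARID4B (0.41), CHD3 between 35 and 63 dpc (-0.27) and CHD4 (-0.48 and -0.43) turned, and these passed (limma adjusted p = 0.000296 to 0.0264). EED over the period went from 0.13 to -0.23 without a call in either, and its earlier rise shrank from 0.27 to 0.04. CHD8 (-0.049) turned after quantile normalization. Quantile normalization moved the median of all probe sets from 35 to 91 dpc from 0.00 to -0.15 and the splits of called genes to 16 higher and 22 lower, 11 and 25, and 18 and 30. The cause of these changes was not tested.

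CHD4 minus CHD3 passed between 35 and 63 dpc with probe sets averaged (0.31). Its later change was -0.24 so, and did not pass in high-gap (0.28) or low-gap arrays (0.41) or the control (0.31) or methyl-enriched diet (0.37). SMARCD2 minus SMARCD1 did not pass later in high-gap arrays (-0.47), control (-0.59) or methyl-enriched diet (-0.55). HDAC2 minus HDAC1 did not pass in low-gap arrays (1.11 and 0.60), control (1.06 and 0.72) or, later, the methyl-enriched diet (0.78). These fits have fewer arrays. Leaving out each array gave SMARCD2 minus SMARCD1 between 35 and 63 dpc from -0.44, where it passed, to -0.28.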
